A study of Mus musculus with 6 samples.

Results

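Reactive gliosis is the response of the retina's glia to injury: Müller glia, which span the whole retina, and astrocytes, which ensheathe ganglion cell axons, enlarge, build more intermediate filaments and secrete acute-phase proteins. The response is driven in large part by cytokines that act through the gp130 receptor and the transcription factor STAT3, with further input from NF-kB and C/EBP factors. The 10 genes described here were chosen by name as genes of reactive Müller glia and astrocytes, and all 10 were found among the 55335 genes of the count table. They were chosen with earlier results of these data known, so their counts beside those of all genes are not a test of the list. By role they are the filament genes Gfap, Vim and Nes, the surface receptor genes Cd44 and Tnfrsf12a, the secreted proteins Serpina3n and Lcn2, the lectin Lgals3, the metal reductase Steap4 and the transcription factor Cebpd.

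The libraries hold RNA that was pulled down from mouse retina with an anti-HA antibody. The labels name retinal ganglion cells, the neurons of the optic nerve, as the cell type, and do not say which protein carried the HA tag. There were 3 naive libraries and 3 libraries from SOHU mice, in which silicone oil placed in the anterior chamber raises eye pressure as a model of glaucoma. All 6 came from wild type C57BL/6 mice aged 10 weeks, and the SOHU retinas were taken 1 week after the oil. Neither pooling nor separate animals are stated in the labels. The p-values therefore rest on library-to-library spread alone, and that spread may be technical. Total counts ranged from 21691354 to 26824919. RNA of other cells was present in both groups: 16 Müller glia genes (among them Rlbp1, Glul and Sox9) summed to 14398.5 to 19185 CPM (counts scaled to library size) in the naive and 27196 to 53622 CPM in the SOHU libraries, while 14 ganglion cell genes summed to 3960 to 6746 and 1868 to 2706 CPM. Fewer cells of a type and less RNA per cell cannot be told apart in such pulled-down material.

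Of the 10 gliosis genes, 8 were higher in SOHU than in naive retina and none was lower (edgeR quasi-likelihood test, adjusted p under 0.05 over 17687 genes). Among all genes tested, 8.02% were higher and 5.93% lower, which is also the background for the other gene lists below. The same 8 genes had every SOHU library above every naive library, which held for 19.3% of all genes. Lcn2 and Steap4 did not pass. The median log2 fold change of the 10 was 1.67, beside 0.014 for all genes tested, and the single values ran from 0.90 for Vim to 2.21 for Gfap. An exact two-sided permutation test of each of the 8 reached p = 0.1, and no smaller p is possible with 3 libraries in each group. The count of the 10 that passed depended on the library left out. Such fits also held fewer samples, and the cause of the change was not tested. With naive replicate 1 or naive replicate 3 left out, edgeR called 0 of the 10 (0% of all genes), while 8 of them kept an unadjusted p under 0.05 in both cases. Leaving out SOHU replicate 2 kept 1 call, Lgals3 (1.6% of all genes higher), and leaving out SOHU replicate 1 kept 4, namely Gfap, Vim, Nes and Lgals3 (6.19%). The count was 7 when SOHU replicate 3 was dropped (11.4%) and 8 when naive replicate 2 was dropped (3.4%). The count was 8 with RLE size factors (8.09% of all genes higher), DESeq2 (11.9%), limma-voom (7.45%) and a stricter low-count filter (9.62%), and 4 with no low-count filter (5.27%). With the replicate number as a block all 10 passed, beside 1178 of 17687 genes higher. No label states that the numbers pair the libraries. Scaling to cell type genes moved all genes: 2 of the 10 were called with scaling to the Müller glia genes (0.288%), and 8 with scaling to the ganglion cell genes, a share near the 72.2% of all genes that were then higher. Lower values in every SOHU library were seen in 0 of the 10 and in 19.7% of all genes.

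**Figure D1:**
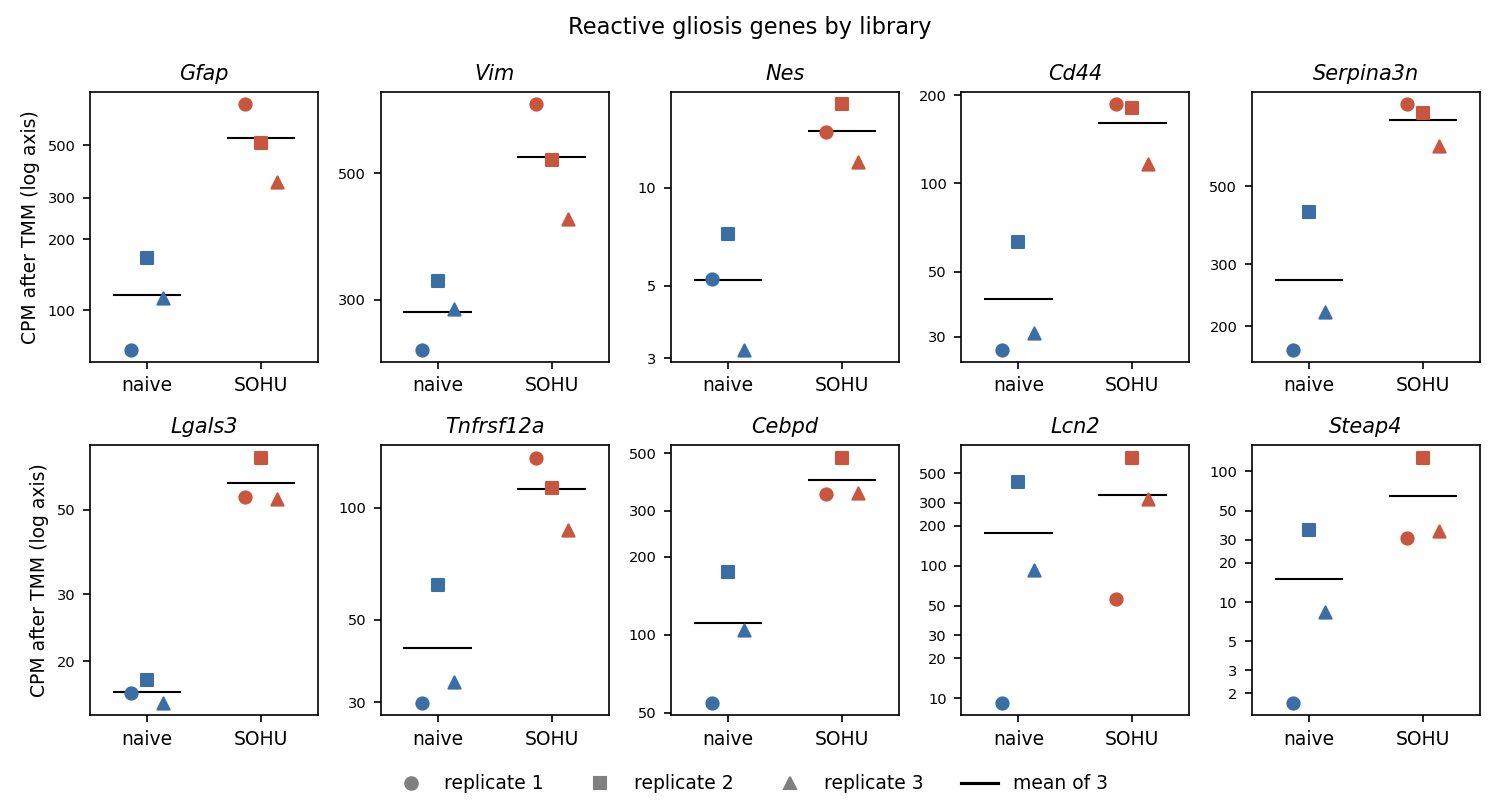
Level of each of the 10 gliosis genes in CPM after TMM scaling, on a log axis, with 1 marker for each library (circle, square and triangle for replicates 1 to 3) and a line at the mean of 3. In all panels but those of Lcn2 and Steap4 the SOHU libraries lie above all naive libraries, and naive replicate 2 is the highest naive library in all 10.

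The promoters of Gfap, Steap4 and Lcn2 are printed here because they belong to the gene with the largest rise and to the 2 genes that varied most within the groups. Windows of 250 bases before to 50 bases after a start site were matched for 9 of the 10 genes, by symbol, in RefSeq on GRCm38.p6. The windows of Gfap, Vim, Lcn2 and Lgals3 lie inside the gene coordinates given below. Any start site farther upstream or beyond a window's end was therefore not searched. Capitals mark a match to the STAT pattern TTCNNNGAA in Gfap and Steap4 and a match to the C/EBP pattern TTNNGNAA, on the opposite strand, in Lcn2, which has no STAT match. Patterns were searched on both strands, and none of the printed matches overlaps a match to another pattern.
Gfap, chr11:102897151-102897450, minus strand: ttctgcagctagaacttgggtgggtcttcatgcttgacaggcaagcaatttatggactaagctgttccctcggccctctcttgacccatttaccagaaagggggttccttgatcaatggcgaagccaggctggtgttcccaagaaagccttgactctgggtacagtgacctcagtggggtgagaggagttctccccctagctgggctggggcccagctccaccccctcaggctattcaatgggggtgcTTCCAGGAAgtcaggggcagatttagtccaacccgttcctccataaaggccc
Steap4, chr5:7960222-7960521, plus strand: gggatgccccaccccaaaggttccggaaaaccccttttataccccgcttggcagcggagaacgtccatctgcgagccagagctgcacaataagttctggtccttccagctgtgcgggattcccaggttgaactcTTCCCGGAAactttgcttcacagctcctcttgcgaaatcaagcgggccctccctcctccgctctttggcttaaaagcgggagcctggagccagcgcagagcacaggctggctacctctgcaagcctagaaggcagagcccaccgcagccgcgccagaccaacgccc
Lcn2, chr2:32387690-32387989, minus strand: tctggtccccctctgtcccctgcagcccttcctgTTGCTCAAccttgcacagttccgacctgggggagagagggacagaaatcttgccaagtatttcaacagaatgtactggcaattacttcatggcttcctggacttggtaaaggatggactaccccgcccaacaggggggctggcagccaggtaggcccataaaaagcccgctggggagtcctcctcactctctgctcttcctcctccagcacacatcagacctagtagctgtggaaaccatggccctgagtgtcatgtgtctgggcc
Counted from the start site of each window, the STAT match begins at -2 in Gfap and at -116 in Steap4. No other gene among the 9 had one, and of all 32851 windows 8.3% had one on either strand. A C/EBP match was present in Vim, Nes, Lcn2, Serpina3n, Steap4 and Tnfrsf12a and in 40.7% of all windows. The NF-kB pattern, GGGA followed by any 4 bases and CC, was found in Vim, Nes, Serpina3n, Lgals3 and Steap4 and in 20.7% of all windows. The AP-1 pattern TGANTCA, present in 7.81% of all windows, was in none of the 9. A match is a run of letters and not a measured binding site.

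The filament genes rose by different amounts. Gfap (ENSMUSG00000020932.14, mm10 chromosome 11, 102887336 to 102900912, minus strand), which encodes the filament protein of astrocytes that Müller glia make in quantity only after injury, stood at 68.1, 167 and 113 CPM in naive replicates 1 to 3 and at 747, 513 and 349 CPM in SOHU replicates 1 to 3. The lowest SOHU library was 2.09 times the highest naive one. The rise was 4.63-fold (log2 fold change 2.21, SE 0.36, 95% interval 1.39 to 3.03, edgeR adjusted p = 0.0125). Vim (ENSMUSG00000026728.9, chromosome 2, 13573927 to 13582826, plus strand), the vimentin filament that Müller glia carry at all times, had 245, 323 and 289 CPM in naive and 660, 526 and 416 CPM in SOHU libraries. Its groups were also apart, by 1.29 times, and its rise of 1.87-fold was the smallest of the 8 (log2 fold change 0.90, SE 0.18, 95% interval 0.49 to 1.31, edgeR adjusted p = 0.0174). Nes (ENSMUSG00000004891.16, chromosome 3, 87971078 to 87980451, plus strand), which encodes nestin, a filament of neural progenitors, had the lowest mean level per exon length of the 10 in each group. In naive replicate 1 Steap4 was lower. Nes had 72 to 168 reads in the naive and 296 to 403 reads in the SOHU libraries. It went from 5.24, 7.22 and 3.18 CPM to 14.9, 18.1 and 12.03 CPM (2.87-fold; log2 fold change 1.52, SE 0.30, edgeR adjusted p = 0.0159).

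Beyond these, 7 filament and filament-linked genes were examined, of which 5 passed the filter on low counts, 1 was higher and 1 lower. Krt18, a keratin, rose 1.63-fold (edgeR adjusted p = 0.0412), from 12.4 to 15.9 CPM in the naive to 18.7 to 28.2 CPM in the SOHU libraries. Prph, the peripherin of ganglion cells and other projection neurons, fell from 22.6 to 42.8 CPM to 11.7 to 20.8 CPM (log2 fold change -0.97, edgeR adjusted p = 0.0445). Synm, which encodes synemin, a partner of GFAP and vimentin in filaments, had a log2 fold change of 0.10 (SE 0.19, edgeR adjusted p = 0.756), and the crosslinker gene Plec one of 0.07 (SE 0.14, edgeR adjusted p = 0.772).

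Both surface receptor genes rose. Cd44 (ENSMUSG00000005087.17, chromosome 2, 102811141 to 102901665, minus strand), the receptor for hyaluronan and osteopontin, had 27.1, 63.3 and 30.8 CPM in the naive and 186, 181 and 116 CPM in the SOHU libraries. All SOHU libraries were above the naive ones, and the rise was 3.99-fold (log2 fold change 1.996, SE 0.32, 95% interval 1.27 to 2.72, edgeR adjusted p = 0.0119). Tnfrsf12a (ENSMUSG00000023905.15, chromosome 17, 23675445 to 23677468, minus strand), the receptor for the cytokine TWEAK and a gene that injured neurons also switch on, went from 29.8, 62.0 and 33.9 CPM to 136, 113 and 87.3 CPM (2.68-fold; log2 fold change 1.42, SE 0.28, 95% interval 0.80 to 2.04, edgeR adjusted p = 0.0157).

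Genes for the partners of these receptors moved in both directions or did not pass. Of 8 genes of CD44 ligands and hyaluronan handling, 5 passed the filter, 2 were higher and 1 lower. Spp1, which encodes osteopontin and in the retina marks a group of ganglion cells, fell from 271, 120 and 142 CPM to 90.1, 53.8 and 79.1 CPM (log2 fold change -1.26, SE 0.30, edgeR adjusted p = 0.0285). The hyaluronidase genes Hyal1 (1.82-fold, edgeR adjusted p = 0.0479) and Hyal2 (1.68-fold, edgeR adjusted p = 0.0494) rose. Of the 7 genes for TWEAK and the adaptors of its receptor, 0 passed in edgeR, and 0 had an unadjusted p under 0.05. The ligand gene Tnfsf12 itself had a log2 fold change of 0.53 (SE 0.25, edgeR adjusted p = 0.183).

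Serpina3n (ENSMUSG00000021091.8, chromosome 12, 104406729 to 104414329, plus strand), a secreted inhibitor of serine proteases and a common marker of reactive astrocytes, had the highest level of the 10 per exon length in both groups. Its level was 172, 424 and 220 CPM in the naive and 856, 806 and 649 CPM in the SOHU libraries, with no overlap, and rose 2.84-fold (log2 fold change 1.504, SE 0.30, edgeR adjusted p = 0.0162). A further 10 Serpina3 genes of the mouse were examined because such close copies can share reads. Of these, 5 passed the filter and 0 the edgeR test (1 with an unadjusted p under 0.05), and their summed level was 5.86 to 12.1 CPM over all libraries.

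Lgals3 (ENSMUSG00000050335.17, chromosome 14, 47367751 to 47386160, plus strand), a galectin of phagocytic cells and of reactive glia, had the smallest p of all 17687 genes. The naive libraries lay close together at 16.5, 17.8 and 15.6 CPM, and the SOHU libraries at 54.1, 68.5 and 53.4 CPM, so that the lowest SOHU library was 2.99 times the highest naive one. The rise was 3.52-fold (log2 fold change 1.82, SE 0.16, edgeR adjusted p = 0.00762). Among 6 further galectin genes and the galectin-binding protein gene Lgals3bp, all tested, 1 passed. This was Lgals2, a galectin with 1, 4 and 0 reads in the naive and 20, 13 and 22 reads in the SOHU libraries (edgeR adjusted p = 0.0269). Lgals3bp had a log2 fold change of 0.56 (SE 0.44, edgeR adjusted p = 0.434).

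Cebpd (ENSMUSG00000071637.5, chromosome 16, 15887286 to 15891031, plus strand), a C/EBP transcription factor induced by acute-phase cytokines, went from 54.6, 174 and 104 CPM to 348, 482 and 351 CPM. The groups were apart by 1.99 times and the rise was 3.55-fold (log2 fold change 1.83, SE 0.37, 95% interval 0.97 to 2.68, edgeR adjusted p = 0.0203). Its exons share 562 bases with Spidr on the opposite strand, a gene with 4.44% of the reads of Cebpd, and the strand setting of the counting is not given in the sources used here. No other gliosis gene shares exon bases with another gene of the files. Of the 6 other C/EBP family genes 5 passed the filter and 2 rose. Cebpb, a close relative that forms dimers with Cebpd's product, rose 2.70-fold (22.6 to 38.9 CPM in naive, 62.6 to 119 CPM in SOHU, edgeR adjusted p = 0.015), and Cebpa rose 2.41-fold from 0.77 to 1.29 CPM to 2.12 to 2.83 CPM (edgeR adjusted p = 0.0416).

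Lcn2 and Steap4 varied widely within the groups. Lcn2 (ENSMUSG00000026822.14, chromosome 2, 32384633 to 32388252, minus strand), which encodes the secreted iron-siderophore carrier lipocalin 2, had 9.24, 433 and 93.3 CPM in naive replicates 1 to 3 and 56.0, 657 and 318 CPM in SOHU replicates 1 to 3. The highest naive library was 46.8 times the lowest, and only 1 of the 10929 genes whose mean log2 CPM was 3 or more had a wider span among naive libraries. The groups overlapped, with SOHU replicate 1 below naive replicates 2 and 3, and the log2 fold change was 0.95 with a 95% interval from -3.02 to 4.92 (edgeR adjusted p = 0.723). Steap4 (ENSMUSG00000012428.9, chromosome 5, 7960457 to 7982213, plus strand), a reductase of iron and copper, had 1.69, 35.3 and 8.36 CPM in the naive and 30.8, 128 and 34.9 CPM in the SOHU libraries. Naive replicate 2 was above SOHU replicates 1 and 3, and the log2 fold change was 2.09 with a 95% interval from -1.13 to 5.32 (edgeR adjusted p = 0.325). Both intervals span falls as well as rises.

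Partner genes of both were also read out. Of the lipocalin partners Slc22a17, Lrp2 and Mmp9, only Mmp9, a matrix protease that binds lipocalin 2, passed, with a fall from 60.9 to 84.6 CPM to 22.2 to 48.2 CPM (log2 fold change -1.10, SE 0.27, edgeR adjusted p = 0.0285). Of the Steap1, Steap2 and Steap3 genes, Steap1 rose 2.49-fold, from 2.96 to 3.65 CPM to 5.77 to 11.8 CPM (edgeR adjusted p = 0.0236).

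Compared per exon length, in RPKM (CPM divided by exon length in kilobases), the order of levels was similar in both groups at its ends. By mean level, Serpina3n stood first in both, at 132 ± 64.8 RPKM in naive and 373 ± 52.2 RPKM in SOHU (SD, n = 3 each), and Nes last, at 0.812 ± 0.314 and 2.34 ± 0.471 RPKM. Among naive libraries the range of Serpina3n overlapped that of Lcn2, the next in order, and the range of Nes that of Steap4. In SOHU neither of these pairs overlapped. Gfap took place 5 among the naive levels (27.5 ± 11.7 RPKM) and place 3 among the SOHU levels (127 ± 47.4 RPKM). Vim went from 60.3 ± 8.22 RPKM, where its libraries lay above all naive libraries of Cebpd, the next in order, to 113 ± 25.7 RPKM, where its range overlapped those of Gfap and Cebpd beside it. In SOHU, Tnfrsf12a (58.1 ± 12.7 RPKM), Lgals3 (31.6 ± 4.60 RPKM) and Cd44 (23.8 ± 5.76 RPKM) followed each other with no overlap between neighbours. Lcn2, second in both groups, overlapped with the next in order in each.

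The naive libraries kept much the same order across the gliosis genes. Within the naive group, replicate 2 was the highest in 10 of 10 genes, replicate 1 the lowest in 8 and replicate 3 the lowest in Nes and Lgals3. Over all 17687 genes these libraries were the highest or lowest of their group in 28.9 to 37.5% of cases. Among the SOHU libraries, replicate 3 was the lowest in 7 of 10 genes, replicate 1 the highest in 5 (Gfap, Vim, Cd44, Serpina3n and Tnfrsf12a) and replicate 2 the highest in the other 5 (Nes, Lgals3, Cebpd, Lcn2 and Steap4). The mean level over the 10 genes was 4.74, 6.48 and 5.48 log2 CPM in naive replicates 1 to 3 and 7.21, 7.76 and 7.10 log2 CPM in SOHU replicates 1 to 3. The naive library with the lowest gliosis genes also had the highest sum of ganglion cell genes, 6746 CPM against 3960 and 4631 CPM in naive replicates 2 and 3. The part of this difference in the results was not tested.

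The other genes that mouse astrocytes raise after endotoxin or stroke were read out as the sets named pan-reactive, A1 and A2. Of 7 further pan-reactive genes, 6 passed the filter and 4 rose, with a median log2 fold change of 1.29. These were Osmr, the oncostatin M receptor (3.94-fold, edgeR adjusted p = 0.0174), Cp, the copper-carrying ferroxidase ceruloplasmin (381 to 869 CPM in naive, 1301 to 1762 CPM in SOHU), the lipid receptor gene S1pr3 (2.37-fold) and the small heat shock gene Hspb1 (1.73-fold). Of 12 A1 genes, which endotoxin raises and several of which answer to interferon, 11 passed the filter and 0 passed the test in edgeR (3 with an unadjusted p under 0.05), with a median of 0.65. The A1 genes with the smallest p were Amigo2 (log2 fold change -0.52), Srgn (1.87), Fbln5 (0.65) and Fkbp5 (-0.42). Of 12 A2 genes, which ischaemia raises, 10 passed the filter and 1 rose, a share near the 8.02% of all genes tested, with a median of 1.01. That gene was Sphk1, a sphingosine kinase, with 20.9 to 27.8 CPM in the naive and 51.9 to 99.3 CPM in the SOHU libraries (3.15-fold, edgeR adjusted p = 0.00952). S100a10 (0.48), Clcf1 (1.00) and Tm4sf1 (1.49) did not pass.

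**Figure D2:**
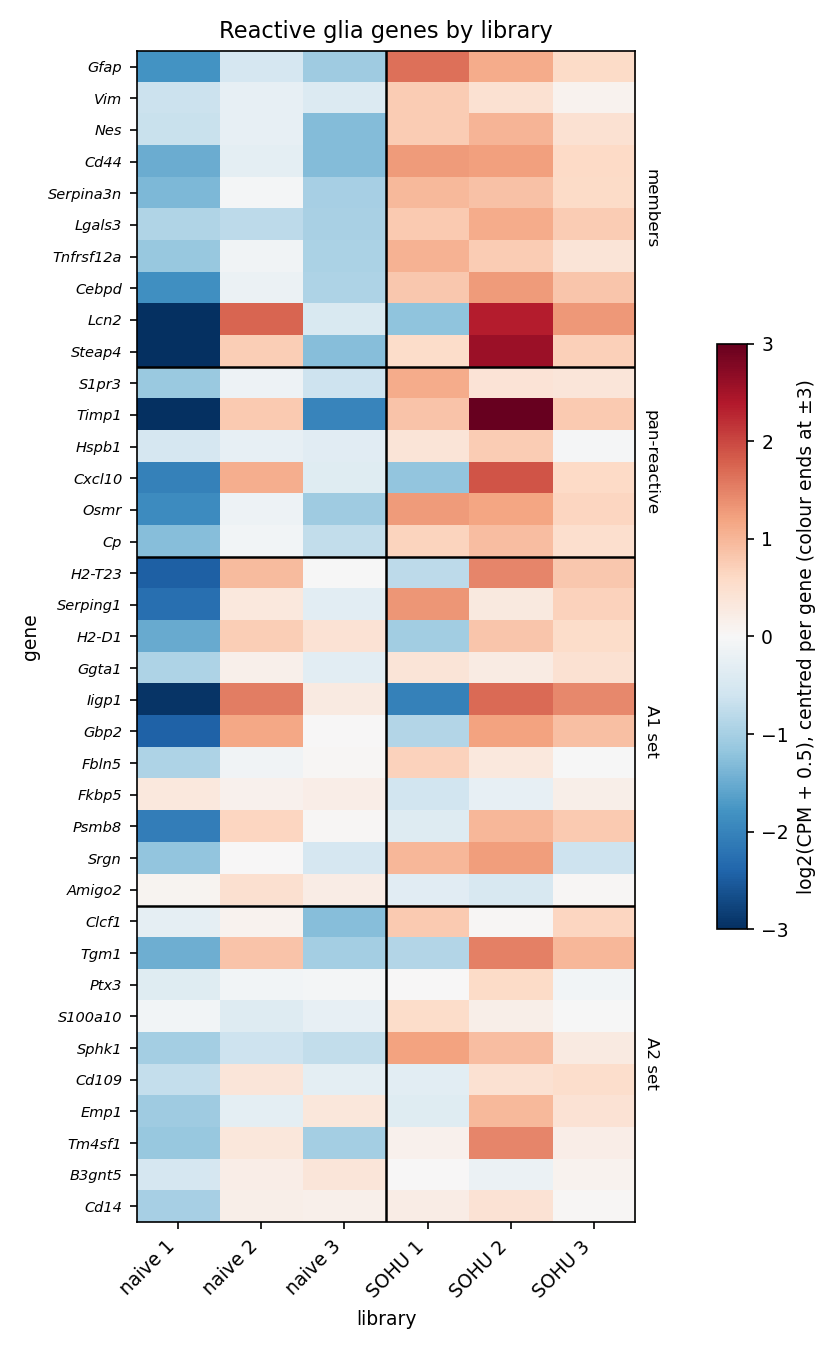
Heat map of log2(CPM + 0.5), centred for each gene, in the 6 libraries for the 10 gliosis genes and the tested genes of the pan-reactive, A1 and A2 sets, with colours ending at 3 on either side. Lcn2, Cxcl10 and several A1 genes are high in replicate 2 of each group and low in replicate 1. Steap4 is highest in replicate 2 of each group and lowest in naive replicate 1, whereas Gfap and Cd44 separate naive from SOHU.

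Lcn2, Steap4 and Cebpd shared an order in which replicate 1 was the lowest, replicate 3 in the middle and replicate 2 the highest in both groups, a pattern picked out after its values were seen. In SOHU, replicates 1 and 3 lay close together for Cebpd (348 and 351 CPM) and Steap4 (30.8 and 34.9 CPM). The shared order occurred in 790 of all 17687 genes (4.47%). Of the 11 tested A1 genes 5 had it, namely H2-T23, H2-D1, Iigp1, Gbp2 and Psmb8. These 5 belong to antigen presentation and the interferon response. The same order was seen in 4 of 14 NF-kB pathway genes, namely Nfkb2, Nfkbia, Nfkbiz and Chuk. It was also seen in 2 of 10 tested A2 genes, in 2 of 14 tested gp130 and STAT3 genes and in 0 of 16 Müller glia genes. Iigp1, an interferon-induced GTPase, had 2.46, 65.2 and 26.97 CPM in the naive and 5.11, 73.5 and 61.5 CPM in the SOHU libraries. The chemokine gene Cxcl10 followed the same order with 8.20, 75.3 and 26.9 CPM and 15.2, 131 and 53.0 CPM. Timp1, a protease inhibitor of the pan-reactive set, was likewise highest in replicate 2 of both groups (34.1 and 166 CPM) and stood at 1.23 to 4.55 CPM in the other naive and 34.1 to 35.9 CPM in the other SOHU libraries. The MHC class II chain gene Cd74, a leukocyte marker, had 2.93, 182 and 127 CPM in naive and 2.04, 171 and 71.7 CPM in SOHU libraries. Whether leukocytes or interferon account for any of these values was not tested.

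Genes of the pathways upstream of gliosis rose in part, where 8.02% of all genes tested were higher. Of 17 genes of gp130 and STAT3 signalling, 14 passed the filter and 5 rose, with a median log2 fold change of 0.69. Il6st, which encodes gp130, went from 55.7 to 75.8 CPM to 111 to 126 CPM (1.89-fold, edgeR adjusted p = 0.0119). The cytokine gene Ctf1 rose 2.63-fold, the receptor gene Il11ra1 1.86-fold, the feedback inhibitor gene Socs3 4.87-fold and Stat3 1.79-fold (edgeR adjusted p = 0.0119, 0.0161, 0.0175 and 0.028). Of the 14 NF-kB pathway genes, all tested, 3 rose, with a median of 0.58. They were the kinase gene Chuk (1.62-fold), the inducible regulator Nfkbiz (2.48-fold) and the subunit gene Rela (1.77-fold), with edgeR adjusted p = 0.0276, 0.0327 and 0.0339. Relb (0.68) did not pass. For comparison, the median log2 fold change of the 16 Müller glia genes was 1.09.

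Because glial RNA made up more of the SOHU libraries, the gliosis genes were also set against 16 Müller glia genes, none of them a gliosis gene. Of these 16, 12 rose, with a median log2 fold change of 1.09, including the potassium channel gene Kcnj10 (2.46-fold), the glial transcription factor gene Sox9 (2.20-fold) and Aldh1l1 (2.60-fold). Glul (1.25-fold, edgeR adjusted p = 0.361) and Rlbp1 (2.25-fold, edgeR adjusted p = 0.061) were among those that did not pass. Gfap amounted to 0.473, 0.869 and 0.666% of the summed CPM of the 16 in naive replicates 1 to 3. In SOHU replicates 1 to 3 it amounted to 1.39, 1.5003 and 1.28%. For Cd44 the ratio was 0.188, 0.330 and 0.182% in naive and 0.348, 0.529 and 0.427% in SOHU libraries. These were the only gliosis genes with every SOHU library above every naive library in this ratio, which held for 0.905% of all genes. Vim had a nearly constant ratio of 1.70, 1.68 and 1.71% in the naive libraries and a lower one of 1.23, 1.54 and 1.53% in the SOHU libraries, as 74.1% of all genes did. The ratios of the other 7 overlapped between the groups.

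**Figure D3:**
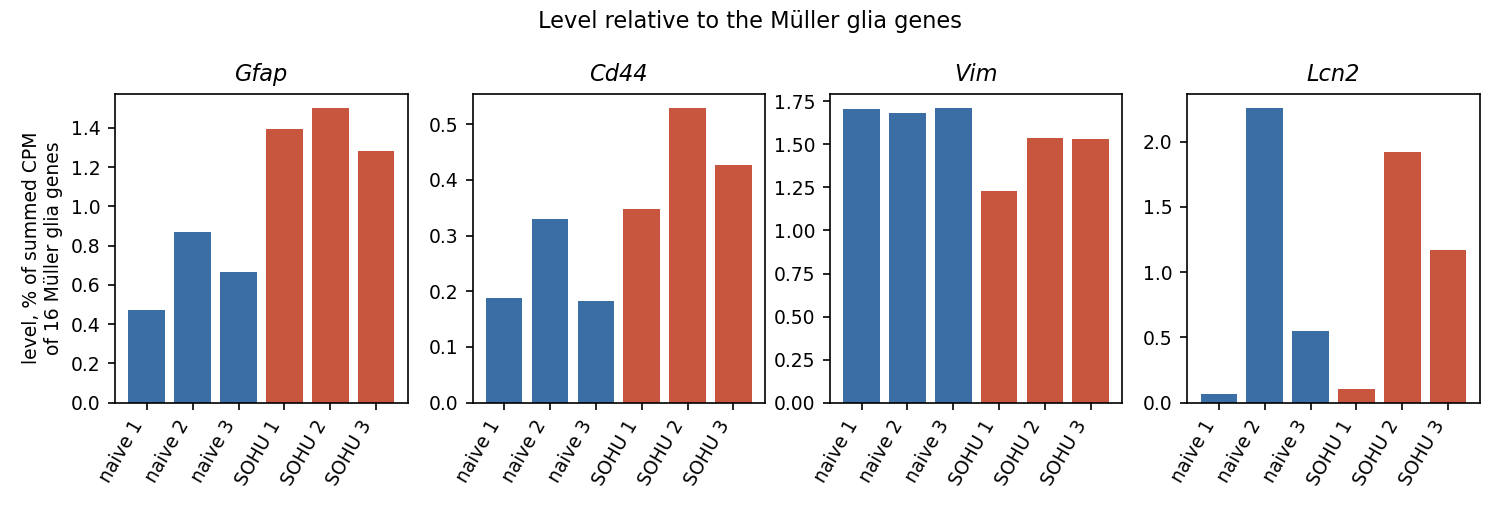
Bars give the level of Gfap, Cd44, Vim and Lcn2 in each library as a percentage of the summed CPM of 16 Müller glia genes, with naive libraries in blue and SOHU libraries in red. Gfap is at 1.28 to 1.5003% in SOHU against at most 0.869% in naive, Vim is at most 1.54% in SOHU against at least 1.68% in naive, and Lcn2 overlaps between the groups.

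In a fit with the libraries scaled to the sum of these Müller glia genes, 2 of the 10 gliosis genes were higher and none was lower, where 0.288% of all genes were higher and 62.3% lower. Over all genes the median log2 fold change was -1.09 under that scaling, beside 0.014 with TMM. Gfap was 2.08-fold higher (log2 fold change 1.06, SE 0.36, edgeR adjusted p = 0.0119) and Cd44 1.86-fold higher (0.90, SE 0.36, edgeR adjusted p = 0.0273). Cebpd (0.81, edgeR adjusted p = 0.0538) and Lgals3 (0.73, edgeR adjusted p = 0.0678) missed the threshold. Nes (0.42), Serpina3n (0.43), Tnfrsf12a (0.31), Steap4 (1.18) and Lcn2 (0.15) did not pass either, and Vim turned to -0.25 with a 95% interval from -0.96 to 0.47. Apoe and Clu held a large part of the sum. With both left out, a choice made after the data were seen, 4 of the 10 genes passed (0.582% of all genes higher), as with the geometric mean of the list (0.531%). Without Apoe and Clu Gfap stood at 1.43, Cd44 at 1.28 and Vim at 0.15. In edgeR both calls were lost when naive replicate 1 (Gfap 0.86, Cd44 0.76; 0.104% of all genes higher), naive replicate 3 (1.05 and 0.75; 0.158%) or SOHU replicate 2 (0.998 and 0.73; 0.116%) was left out, with 0, 1 and 1 of the 10 at an unadjusted p under 0.05. The count was 4 on leaving out naive replicate 2 (0.393%) or SOHU replicate 1 (0.683%), and 2 on leaving out SOHU replicate 3 (0.354%).

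**Figure D4:**
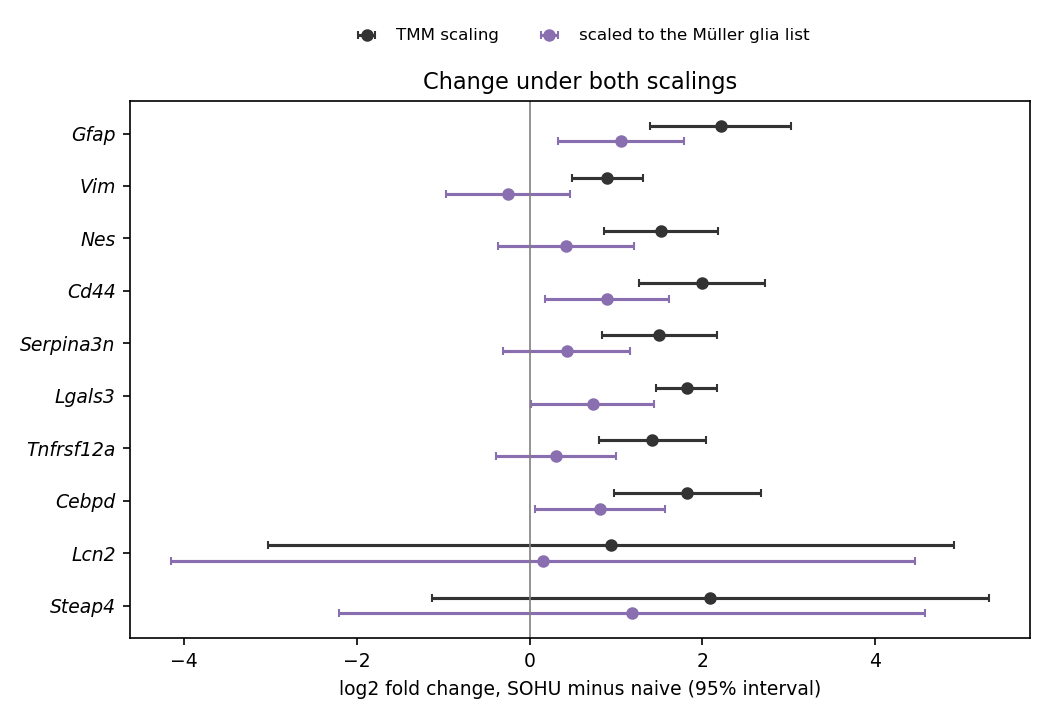
Points give the log2 fold change of SOHU minus naive for each gliosis gene and bars its 95% interval, in black with TMM scaling and in purple with libraries scaled to the sum of 16 Müller glia genes. All 10 points are above 0 in black, from 0.90 to 2.21, and Vim is at -0.25 in purple.

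Markers of other cells moved as well. The retinal astrocyte genes showed 0 edgeR calls among the 5 of 7 that passed the filter (median log2 fold change 0.27; 2 with an unadjusted p under 0.05), Pax2, a transcription factor gene of optic nerve astrocytes, had 36 reads in all libraries together, and none of the 7 was at 0 in every library. Of 16 microglia and leukocyte genes, 14 passed the filter and 6 rose, with a median of 1.76, none was at 0 in every library, and their summed level was 11.2 to 215 CPM in naive and 119 to 255 CPM in SOHU libraries. Cd74 held most of that sum in naive replicates 2 and 3 and in SOHU replicates 2 and 3. Without it, a choice made after the values were seen, the other 15 genes summed to 8.32, 33.2 and 21.3 CPM in naive replicates 1 to 3 and to 136, 83.8 and 47.3 CPM in SOHU replicates 1 to 3, with no overlap. Trem2 (0.077 to 0.442 CPM in naive, 1.22 to 5.61 CPM in SOHU), Lyz2 (1.96 to 7.18 and 18.2 to 46.4 CPM) and Tyrobp (0.115 to 1.504 and 4.51 to 12.4 CPM) had the smallest p. Lgals3 and Cd44 are also made by such cells, and the part of leukocytes in their rise was not tested. Of 9 endothelial and pericyte genes, 6 passed the filter and 3 rose, with a median of 1.19 and a summed level of 361 to 408 CPM in naive and 747 to 1069 CPM in SOHU libraries. Those were the vascular growth factor receptor genes Kdr (2.503-fold) and Flt1 (2.14-fold) and the pericyte receptor gene Pdgfrb (2.42-fold). Kdr held most of the sum, with 270 to 301 CPM in naive and 562 to 855 CPM in SOHU libraries. Pecam1 (49 reads in all libraries together), Cdh5 (4 reads) and Cspg4 (90 reads) did not pass the filter. Tek (log2 fold change -0.21), Rgs5 (0.89) and Cldn5 (1.31) did not pass the test. The part of vascular cells in the rise of the gliosis genes was not tested. Of 7 lens, cornea and iris genes 6 passed the filter and 1 rose, Bfsp2, a lens filament gene (3.62-fold), with a median of -0.12 for the list. The 10 rod photoreceptor genes held 0 calls (edgeR; 1 with an unadjusted p under 0.05).

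The genes whose levels followed Gfap most closely over the 6 libraries were found by the root mean square difference of centred log2 CPM, among 10928 genes whose mean log2 CPM was 3 or more. They were Trf, which encodes the iron carrier transferrin (0.16), Litaf (0.17), Cmtm3 (0.21), the retinoic acid hydroxylase gene Cyp26a1 (0.22) and Myb (0.22). Trf had 322, 669 and 412 CPM in the naive and 3485, 1828 and 1388 CPM in the SOHU libraries, in the same order as Gfap. Among the gliosis genes Cd44 was nearest to Gfap (0.24, place 9), and Lcn2 was farthest (1.81, place 10722).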

How the data were processed

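The deposited values, raw read counts for each gene, came as 1 file per library and 1 joint table, whose 6 columns equalled the single files; exon coordinates and summed exon length stand beside the counts, per the file headers. Build mm10, bcl2fastq 2.17, featureCounts, HISAT2, HISAT, Trim Galore and MultiQC are named in the submitters' processing notes. For the order of steps, the annotation release and the strand setting, no source used here gives a statement. GENCODE M21 supplied symbols for 55154 of the 55335 gene rows. Between libraries of 1 group, chi-square per degree of freedom was 12.6 to 79.0, so none was counted as a copy of another.

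Low counts were removed with filterByExpr, which kept 17687 genes, all 10 gliosis genes and at least 99.8% of each library's reads. After TMM scaling (factors 0.943 to 1.04) the groups were tested in edgeR 4.0.16 (R 4.3.3) by quasi-likelihood with robust estimates and group as the only term. Benjamini-Hochberg adjustment ran over all genes tested, with a threshold of 0.05. SE is the log2 fold change divided by the root of the F statistic. Log2 CPM used a prior count of 2, and RPKM the deposited exon length. The gliosis genes, gene lists, patterns and tests were chosen with earlier results of these data known. Named genes are the 10, the passing genes of the partner lists, up to 4 of smallest p in each pathway list, 3 each of the Müller glia and leukocyte lists, and the 5 nearest to Gfap. Synm, Plec, Tnfsf12, Lgals3bp, Cxcl10, Timp1, Iigp1, Cd74, Pax2, Stat3, Apoe, Clu, Kdr, Flt1, Pdgfrb and Bfsp2, and the genes sharing a library order, were named after their values were seen. So were Pecam1, Cdh5, Cspg4, Tek, Rgs5 and Cldn5. Ddit3 stood on 2 rows, of which the first was used. Alternatives were RLE size factors, DESeq2 1.42.0, voom in limma 3.58.1, other low-count filters, scaling to Müller glia or ganglion cell genes, a replicate block and leaving out each library.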

Additional observations from a re-analysis of the deposited data

How the results depend on the processing

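The count of gliosis genes past the threshold was 8 with TMM and also with RLE size factors, DESeq2, limma-voom and a stricter low-count filter, and with scaling to the ganglion cell genes, where most genes passed. It was 4 with no low-count filter, where the unadjusted p of Gfap went from 0.000198 to 0.00997 and 3357 of 31942 genes passed, and 2 with scaling to the Müller glia genes, where Vim turned to -0.25. Leaving out 1 library gave 0 to 8. Over all genes, 2467 passed with TMM (1418 higher, 1049 lower), 11074 when scaled to the Müller glia genes (51 higher, 11023 lower), 12771 when scaled to the ganglion cell genes (12769 higher, 2 lower; median of all genes 1.18), and 0 to 3896 with 1 library left out. In the Müller-scaled fit the count of 2 became 4 without Apoe and Clu, where Vim was at 0.15, 4 with the geometric mean of the list, and 0 to 4 with 1 library left out; these settings were chosen after seeing the data. The cause of these shifts was not tested, beyond fewer samples where a library was left out. Whether the replicate numbers pair the libraries cannot be told from these values. Deviations from the group means correlated at 0.163, 0.251 and 0.004 for numbers 1, 2 and 3. Numbers 1 and 2 correlated best with themselves, and number 3 did not. With the number as a replicate block, 2070 genes passed (1178 higher) and all 10 gliosis genes did, Lcn2 with an edgeR adjusted p of 0.0256 and Steap4 with 0.0189. Among the gliosis genes the fewest reads in a library were 44 for Steap4 and 72 for Nes, which sets the counting precision there.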
